A study of Ovis aries with 9 samples.

Results

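Translation initiation factor genes were followed in the longissimus dorsi, the long back muscle, of Chinese merino sheep fetuses. Members were the loci of the deposited table whose gene name starts with EIF and a number. Where a name had several loci, the locus with a reference transcript and the highest mean level was kept. The rule used no measured change, and it gave 50 genes from 51 loci among 22605 loci. Muscle RNA was sequenced at day 85 (D85), day 105 (D105) and day 135 (D135) of gestation. Each day has 3 libraries, and the labels name no genotype or treatment beside breed and age. Levels are FPKM, fragments scaled by transcript length and by library size. Nothing in the labels ties the 3 libraries of a day to separate animals. The spread behind each p-value is therefore that of these libraries and could be technical.

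Initiation factors bring the initiator tRNA, the small ribosomal subunit and an mRNA together and place the ribosome on the start codon. eIF2 carries the initiator tRNA, eIF3 bridges the small subunit to the cap-bound eIF4F complex, and eIF1, eIF1A, eIF5 and eIF5B control start codon choice and subunit joining. Regulation acts mainly on eIF2, through kinases that phosphorylate its alpha subunit, and on the cap-binding protein eIF4E, through binding proteins downstream of TOR. In skeletal muscle this machinery is a known control point of growth by protein synthesis.

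All 9 libraries carried high summed levels of skeletal muscle markers (ACTA1, MYLPF, CKM, DES, TNNC2 and MYOG, 6 of 7 entries, as TNNT3 did not match). Their summed level was 6298 to 8434 FPKM at D85, 7759 to 10731 at D105 and 15070 to 18532 at D135. MYOG added little to it, at 6.04 to 17.7 FPKM, and its change to D135 was not called. As deposited, MYLPF and DES were not called either, and TNNC2 was called higher from D85 to D135 but not from D105. After the scaling described below, MYLPF, DES and TNNC2 were each called higher from D85 to D135 but not from D105. D105 replicate 2 stood apart, with fibroblast markers at 5101 FPKM against 743 to 2421 in the other libraries, tendon and cartilage markers at 320 against 2.58 to 113, and adipocyte markers at 104 against 1.81 to 68.8. Size factors computed by median of ratios, a scaling that sets the typical locus equal between libraries, were 1.062 to 1.163 in the D85 and D105 libraries and 0.778 to 0.839 in those of D135. Without that scaling the median tested locus differed by -0.33 (log2) between D105 and D135 and by -0.35 between D85 and D135, and with it by 0.01 and 0.01. Tested changes to D135 are therefore given both as deposited and after median-of-ratios scaling. Values by library, and statements that days overlap or do not, are of deposited levels unless scaled values are named. The higher muscle marker sums moved with this shift, and their part in it was not tested, and in bulk RNA fewer cells of a type and less RNA per cell cannot be told apart.

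Most EIF genes lay above the typical locus in level. Of the 50, 49 reached 1 FPKM in at least 3 libraries and were tested. EIF4E1B, a germline relative of the cap-binding protein, was listed at 0 in 8 libraries and at 0.0321 FPKM in D105 replicate 2. The median EIF gene had a mean level of 20 FPKM against 4.57 for all 13086 tested loci, and 25 of the 49 lay above the 90th percentile of tested loci (19.4 FPKM). Mean levels reached 50 FPKM in 12 genes and stayed under 10 FPKM in 17. The 12 eIF3 subunit genes made up 36.8% to 43.8% of the summed EIF level in each library, and a group of 10 genes around eIF4F 25.7% to 30.1%. That group counts in EIF4B, EIF4G2 and EIF4H, which are not subunits of eIF4F itself and had mean levels of 106, 71 and 61.9 FPKM. The 4 kinases of eIF2 alpha made up 1.1% to 2.34%.

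**Figure D1:**
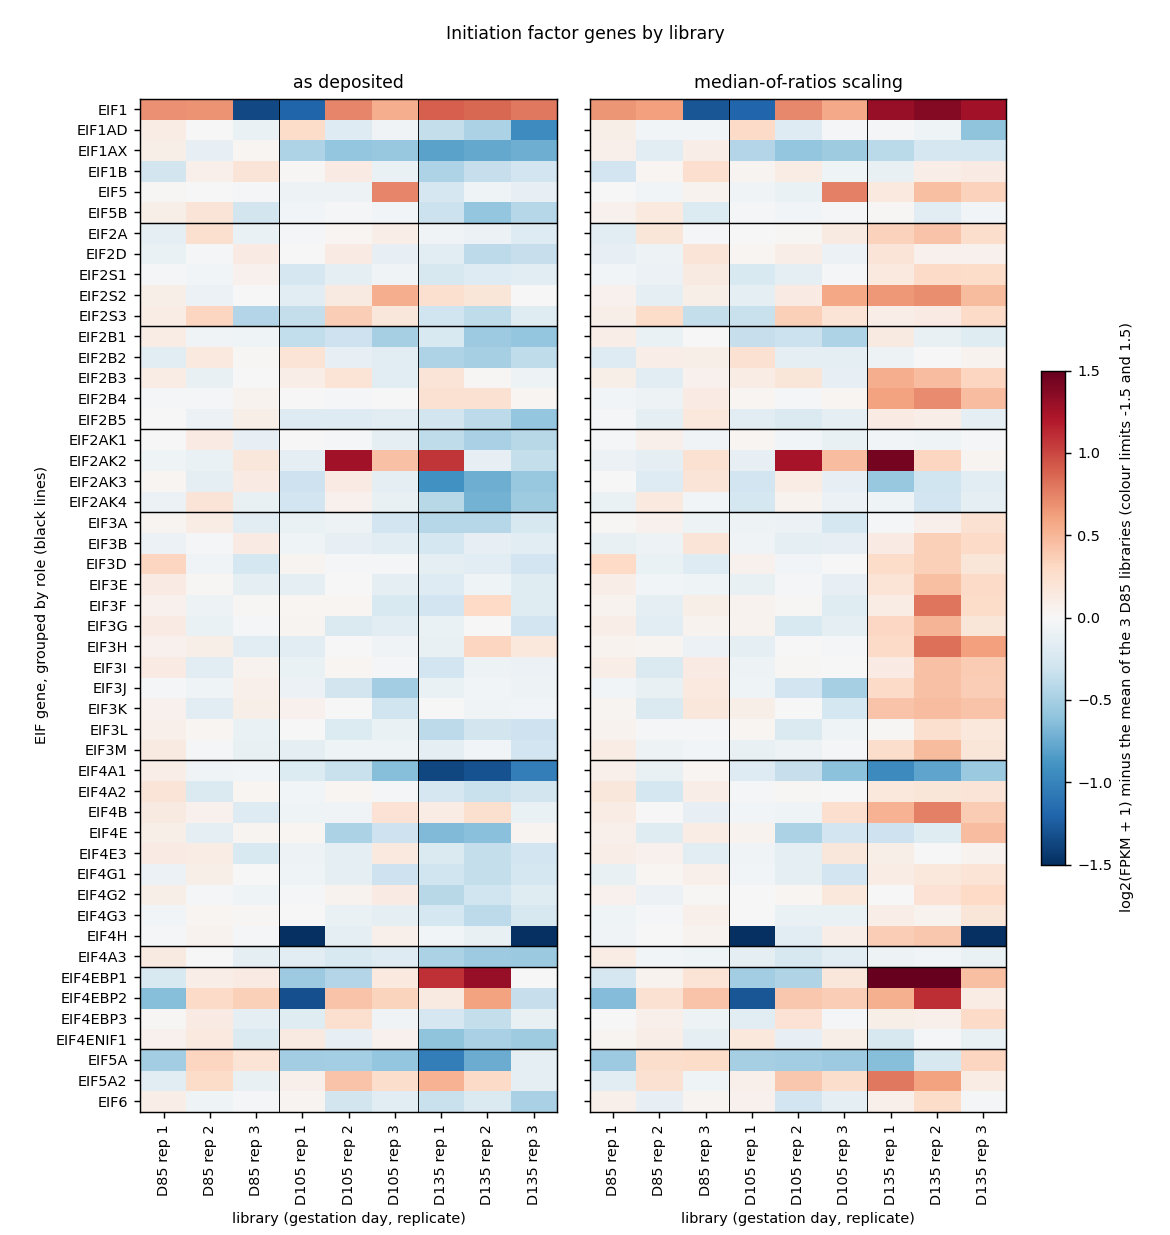
Level of each of the 49 tested EIF genes (rows, grouped by role) in each of the 9 libraries (columns), as log2(FPKM + 1) minus the mean of the 3 D85 libraries, as deposited (left) and after median-of-ratios scaling (right). D135 columns are mostly blue on the left and mostly red on the right, while EIF4A1 is blue at D135 in both panels.

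Between D85 and D105 none of the 49 EIF genes passed the test in either direction, as deposited or after scaling (limma, Benjamini-Hochberg adjusted over all tested loci, threshold 0.05). Among all tested loci 0.145% were called higher and 0.0535% lower as deposited, and 0.145% and 0.0459% after scaling. At an unadjusted p under 0.05, 4 EIF genes were lower as deposited and 3 after scaling, and 0 were higher. All 3 D105 libraries lay below all 3 D85 libraries in 7 EIF genes as deposited, and above in 0, where such separation held for 10.4% and 8% of all tested loci. After scaling the counts were 6 and 0, against 9.52% and 8.78%.

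Between D105 and D135, 1 EIF gene rose and 10 fell as deposited, which is 2.04% and 20.4% of the members against 4.47% and 35% of all tested loci. After median-of-ratios scaling 9 rose and 0 fell, or 18.4% of the members called higher against a background of 10.6% higher and 6.96% lower. At an unadjusted p under 0.05, 1 gene was lower after scaling. The median EIF gene differed by -0.19 (log2) as deposited and by 0.23 after scaling, which is 0.14 and 0.22 above the median of all tested loci. All D135 libraries lay below all D105 libraries in 20 EIF genes and above in 2 as deposited, where 47.7% and 6.43% of tested loci separated so. After scaling they lay above in 25 and below in 0, against 20% and 16.8%. The comparisons share libraries: D105 serves as the later day in the first and as the earlier day here.

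Between D85 and D135 the family held 0 genes called higher and 19 called lower as deposited (38.8% of the members against 6.9% higher and 39.7% lower in the background). At an unadjusted p under 0.05, 1 gene was higher. After scaling, 9 were higher and 1 was lower, or 18.4% and 2.04% against 14.9% and 12.5%. The median EIF gene differed by -0.29 as deposited and by 0.17 after scaling, 0.07 and 0.16 above the median of all tested loci. As deposited the share of EIF genes called lower was thus near the background. All D135 libraries lay below all D85 libraries in 25 EIF genes and above in 1 as deposited, against 48.8% and 9.42% of tested loci. After scaling they lay below in 2 and above in 18, against 21.8% and 23.1%. For 31 genes the call in at least 1 comparison depended on the scaling. The call was made under both scalings, in the same comparison and direction, for EIF4A1 (lower at D135 than at D85) and EIF4EBP1 (higher at D135 than at D105). Calls over all tested loci shifted with the scaling too, from 39.7% to 12.5% lower and from 6.9% to 14.9% higher between D85 and D135. The share of all tested loci with a changed or a shared call was not counted, so these counts are not a trait of the family. By the moderated F test over the days, 15 EIF genes were called as deposited and 9 after scaling, where 43.2% and 22.9% of all tested loci were called.

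**Figure D2:**
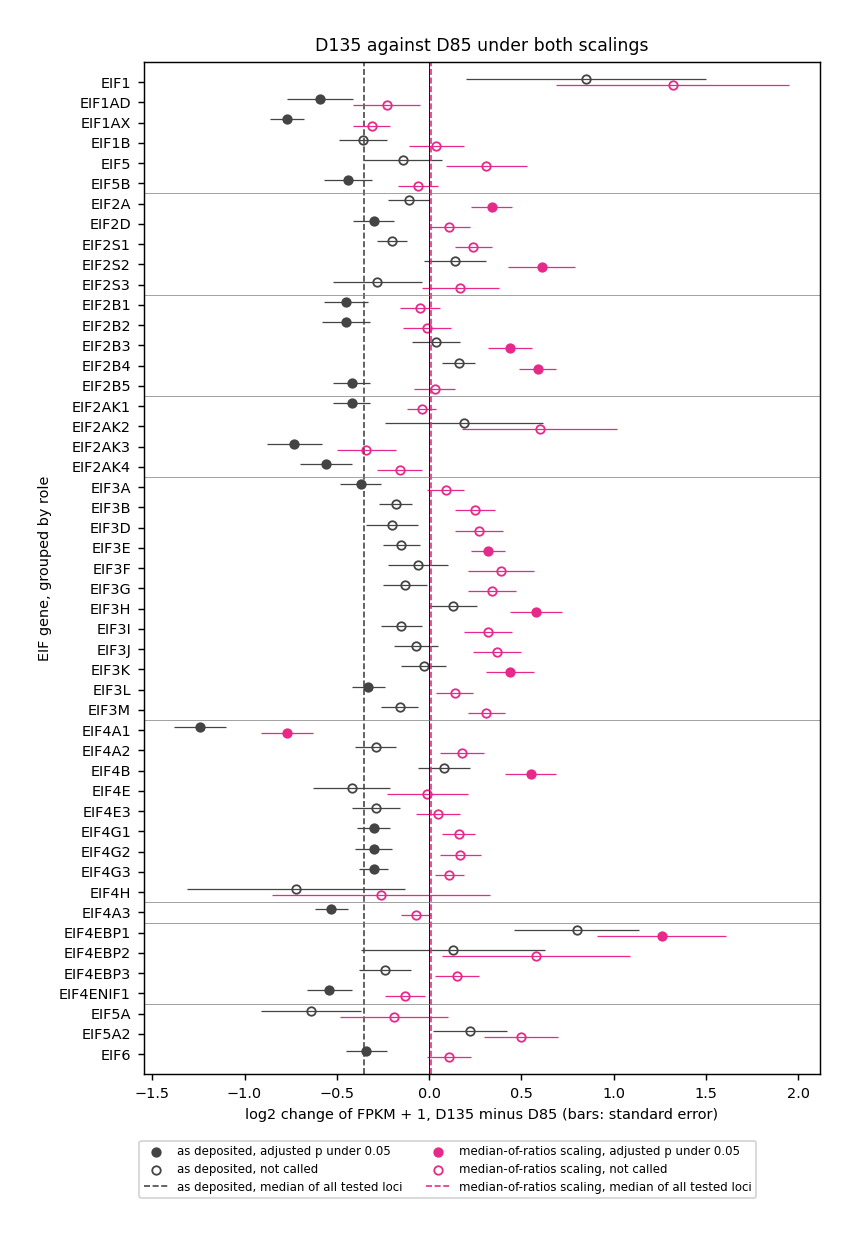
Change of each tested EIF gene from D85 to D135 in log2(FPKM + 1), with standard error, as deposited (grey) and after median-of-ratios scaling (pink). Filled points passed the test (19 grey and 10 pink), and dashed lines mark the median of all tested loci, -0.35 and 0.01. EIF4A1 lies farthest to the left under both scalings.

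The start codon and scanning group held 6 genes, of which 2 fell from D105 to D135 and 3 from D85 to D135 as deposited (background 35% and 39.7%), and 0 passed either test after scaling (0 and 1 at an unadjusted p under 0.05). EIF1AX encodes eIF1A, which opens the small subunit for scanning. It was at 63.0, 54.2 and 60.2 FPKM at D85, at 42.5, 39.3 and 39.4 at D105 and at 33.3, 34.2 and 35.0 at D135. The libraries of the days did not overlap, with D85 highest and D135 lowest. The log2 change from D85 to D135 was -0.77 ± 0.09 (SE; limma, adjusted p = 0.000445), and this call held with each of the 9 libraries left out. After scaling it was -0.31 with an adjusted p of 0.0577. Most of the difference lay between D85 and D105 (-0.54, adjusted p = 0.0718 as deposited; -0.52, adjusted p = 0.139 after scaling), and it passed only when no locus was filtered for low values (adjusted p = 0.0485). From D105 to D135 the sign depended on the scaling, at -0.24 (adjusted p = 0.0587) and 0.21 (adjusted p = 0.2). By the F test over the days EIF1AX was called under both scalings, with adjusted p of 0.00115 and 0.0199.

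EIF1AD, which carries the eIF1A domain, was low throughout, at 4.85, 4.43 and 4.06 FPKM at D85, 5.59, 3.76 and 4.25 at D105 and 3.26, 2.91 and 1.82 at D135. All D135 libraries lay below the others, and D135 replicate 3 was the lowest. EIF5B, the GTPase that joins the large subunit, was at 5.58, 6.10 and 4.14, then 5.02, 5.09 and 5.03, then 3.97, 3.16 and 3.61 FPKM. D135 again lay below both earlier days, and D85 replicate 3 was close to it. Their changes from D85 to D135 were -0.59 (adjusted p = 0.0297) and -0.44 (adjusted p = 0.027) as deposited, and -0.23 and -0.06, neither called, after scaling. Both calls were lost when D85 replicate 1 or 2 or D135 replicate 2 or 3 was left out.

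EIF1, which guards start codon choice, could not be ordered by day and is described because its values were seen to jump. It was at 63.9, 63.2 and 14.8 FPKM at D85, at 16.5, 66.3 and 57.8 at D105 and at 74.4, 72.2 and 68.9 at D135. D85 replicate 3 and D105 replicate 1 had about 0.227 and 0.253 times the median of the other libraries. All D135 libraries lay above the others under both scalings, yet the change from D85 (0.85 ± 0.65 SE as deposited, 1.32 ± 0.63 after scaling) was not called. Its paralogue EIF1B showed no such jump, with all libraries between 4.36 and 7.42 FPKM. EIF5, which triggers GTP hydrolysis by eIF2, lay between 25.6 and 31.0 FPKM in 8 libraries and at 51.4 in D105 replicate 3, and it was not called.

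Among eIF2 and the other initiator tRNA carriers, 0 of 5 genes passed from D105 to D135 as deposited (1 at an unadjusted p under 0.05) and 1 rose after scaling. From D85 to D135, 1 fell as deposited and 2 rose after scaling. Of all tested loci 35% and 39.7% were called lower as deposited in these comparisons, and 10.6% and 14.9% higher after scaling. The alpha subunit gene EIF2S1, the site of regulatory phosphorylation, stayed in a narrow range, at 12.9 to 14.0 FPKM at D85, 11 to 12.8 at D105 and 11.1 to 11.7 at D135. Its rise from D105 to D135 was called after scaling (0.37, adjusted p = 0.0394) and was -0.06 as deposited. EIF2S2, the beta subunit, ranged from 37.0 to 61.1 FPKM, with its highest value in D105 replicate 3, and from D85 to D135 it was called higher after scaling (0.61, adjusted p = 0.0374) with 0.14 as deposited. EIF2S3, the gamma subunit that binds GTP and the tRNA, varied within days, from 17.3 to 30.0 FPKM at D85 and from 18.3 to 31.0 at D105, and lay at 18.0 to 20.9 at D135. It was not called under either scaling.

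How reads divide between EIF2S1, EIF2S2 and their copies in the table is uncertain. A locus described as an EIF2S1 copy lay at 3.32 to 8.53 FPKM, and the EIF2S2 copies lay at 11 to 15.3 and at 4.16 to 6.70. The EIF2S1 copy was called lower at D135 than at D85 as deposited (-0.60, adjusted p = 0.037) and not after scaling (-0.21, adjusted p = 0.535). The EIF2S2 copies were higher at D135 than at D85 under both scalings (0.37 and 0.40 as deposited, adjusted p = 0.0129 and 0.0306; 0.81 and 0.81 after scaling, adjusted p = 0.000711 and 0.00271). EIF2A and EIF2D encode proteins outside the eIF2 complex that can deliver initiator tRNA. EIF2A lay between 17.6 and 24.1 FPKM and was called higher at D135 than at D85 only after scaling (0.34, adjusted p = 0.0458). With single libraries left out, the scaled calls were lost in 8 of 9 fits for EIF2A and in 7 of 9 each for EIF2S1 and EIF2S2. EIF2D lay between 5.45 and 8.23 FPKM and was called lower at D135 than at D85 only as deposited (-0.30, adjusted p = 0.0499). That call was lost in 8 of 9 fits with a library left out, and after scaling the change was 0.11.

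eIF2B, the exchange factor that reloads eIF2 with GTP, has 5 subunit genes, all tested. From D85 to D135, EIF2B1, EIF2B2 and EIF2B5 fell as deposited and 0 rose, and EIF2B3 and EIF2B4 rose after scaling and 0 fell. Of all tested loci 39.7% were called lower and 6.9% higher as deposited, and 12.5% and 14.9% after scaling. A difference between subunits was not tested. The catalytic subunit gene EIF2B5 was at 16.8, 15.7 and 17.9 FPKM at D85, 14.5, 14.5 and 14.8 at D105 and 13.7, 12.5 and 10.9 at D135, with no overlap between days. Its change from D85 to D135 was -0.42 ± 0.10 (SE; limma, adjusted p = 0.0105) as deposited, and 0.03 after scaling. EIF2B1, the alpha subunit, was at 7.11, 6.22 and 6.15, then 4.78, 5.02 and 4.28, then 5.41, 4.12 and 4 FPKM. D105 and D135 overlapped, and both lay below D85. EIF2B2, the beta subunit, was at 13.2, 16.7 and 15.1, then 17.4, 13.6 and 13.2, then 10.6, 10.3 and 11.2 FPKM, with all D135 libraries lowest. Both had a change of -0.45 from D85 to D135 as deposited (adjusted p = 0.018 for EIF2B1 and 0.0226 for EIF2B2), and after scaling -0.05 and -0.01.

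EIF2B4, the delta subunit, is given by library because of its values after scaling. It was at 9.29, 9.19 and 9.78 FPKM at D85, at 9.5, 9.32 and 9.39 at D105 and at 11.2, 11.2 and 9.62 at D135. As deposited, D135 replicate 3 lay below the highest D85 library, and the change from D85 was 0.16 (adjusted p = 0.154). After scaling D135 stood clear of both earlier days, at 12 to 14.4 against 7.90 to 9.21, with a change of 0.59 ± 0.10 (SE; limma, adjusted p = 0.00297). Its rises from D85 and from D105 (0.58, adjusted p = 0.00581) held with each library left out after scaling, and both were called after quantile normalization too. After scaling to the total without the 50 most abundant loci they were 0.28 (adjusted p = 0.0375) and 0.25 (adjusted p = 0.0595, not called). EIF2B3, the gamma subunit, lay between 4.53 and 6.07 FPKM. Its change from D85 to D135 was 0.04 as deposited and 0.44 after scaling (adjusted p = 0.0273), a call lost without D85 replicate 2 or 3 or D135 replicate 1 or 2.

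Of the 4 kinases of eIF2 alpha, 3 fell both from D105 to D135 and from D85 to D135 as deposited, where 35% and 39.7% of all tested loci fell, and 0 were called after scaling, also at an unadjusted p under 0.05. EIF2AK3 (PERK), which responds to endoplasmic reticulum stress, was at 7.58, 6.58 and 8.16 FPKM at D85, 5.81, 8.20 and 6.60 at D105 and 3.49, 4.06 and 4.69 at D135. The earlier days overlapped and D135 lay below both. Its changes to D135 were -0.73 from D85 (adjusted p = 0.0048) and -0.63 from D105 (adjusted p = 0.0122) as deposited, and -0.34 and -0.24 after scaling. EIF2AK4 (GCN2), which senses uncharged tRNA, was at 5.73, 7.19 and 5.6, then 4.83, 6.48 and 5.59, then 4.34, 3.36 and 3.93 FPKM. EIF2AK1 (HRI), the haem-regulated kinase, was at 5.14, 5.71 and 4.66, then 5.18, 5.01 and 4.59, then 3.74, 3.39 and 3.63 FPKM. In both genes every D135 library lay below every earlier one. From D85 to D135 the changes were -0.56 (adjusted p = 0.0127) for EIF2AK4 and -0.42 (adjusted p = 0.00847) for EIF2AK1, against -0.16 and -0.04 after scaling.

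EIF2AK2 (PKR), the kinase activated by double-stranded RNA, behaved apart from the other three and was picked out for its uneven values. It lay between 4.51 and 8.56 FPKM in 7 libraries, at 15.9 in D105 replicate 2 and at 13.8 in D135 replicate 1. The days overlapped, and no comparison was called. D105 replicate 2 is the library with the highest fibroblast, adipocyte and leukocyte marker sums, and D135 replicate 1 has the lowest fibroblast sum (743 FPKM); their part in this value was not tested.

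Among the eIF3 subunit genes, as deposited 0 of 12 passed between D105 and D135 (1 at an unadjusted p under 0.05). From D85 to D135, 2 (EIF3A and EIF3L) fell, with changes of -0.37 to 0.13. Of all tested loci 4.47% were called higher and 35% lower from D105, and 6.9% and 39.7% from D85. The median eIF3 change from D85 to D135 was -0.15, against -0.35 for all tested loci. After scaling all 12 had a positive change in both comparisons, with medians of 0.39 and 0.32 against 0.01 and 0.01 for all tested loci. Of these, 5 passed from D105 (EIF3E, EIF3H, EIF3J, EIF3K and EIF3M) and 3 from D85 (EIF3E, EIF3H and EIF3K). Of all tested loci 10.6% and 14.9% were called higher. The EIF3E changes from D105 and D85 were 0.05 and -0.03 after quantile normalization. They were 0.04 and -0.02 after scaling to the total without the 50 most abundant loci, none of them called. The summed level of the 12 genes was 601 to 682 FPKM at D85, 565 to 619 at D105 and 546 to 599 at D135 as deposited. D105 overlapped both other days, and D135 lay just below D85. After scaling the order turned, with D135 at 668 to 770 above D85 at 517 to 600 and D105 at 516 to 561. Mean levels within the complex spanned 10.7 FPKM for EIF3J to 136 for EIF3G.

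**Figure D3:**
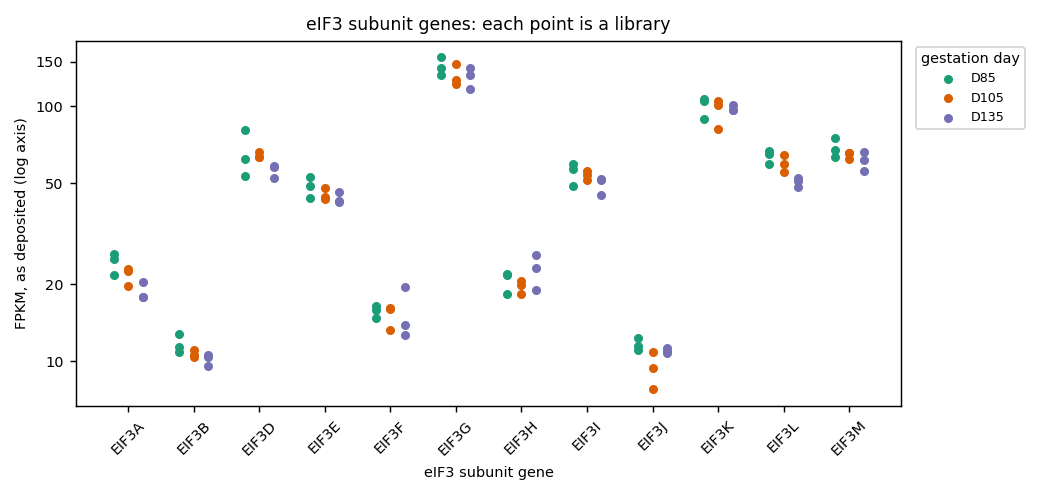
Deposited FPKM (log axis) of the 12 eIF3 subunit genes, with a point for each library and a colour for each gestation day. Differences between subunits, from means of 10.7 FPKM for EIF3J to 136 for EIF3G, are far larger than those between days. In EIF3A, EIF3B and EIF3L every D135 point lies below every D85 point.

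EIF3G, an RNA-binding subunit and the most abundant EIF mRNA in these libraries, was at 156, 133 and 141 FPKM at D85, 147, 123 and 127 at D105 and 133, 142 and 117 at D135. The days overlapped as deposited. After scaling D135, at 145 to 183, lay above D85 (115 to 137) and D105 (109 to 133). It was not called under either scaling. EIF3K was at 105, 89.7 and 107, then 105, 101 and 81.5, then 101, 96.6 and 97.1 FPKM. EIF3M was at 75.3, 67.4 and 63.2, then 62.3, 65.5 and 65.5, then 61.8, 66.4 and 55.9 FPKM. Both overlapped between days as deposited. From D105 to D135 they were called higher only after median-of-ratios scaling (0.51, adjusted p = 0.0337, and 0.38, adjusted p = 0.0385). Leaving out single libraries ended these calls in 6 and 7 of 9 fits. The changes were 0.06 and 0.01 after quantile normalization, not called. Scaling to the total without the 50 most abundant loci gave 0.15 and 0.02, also not called.

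EIF3J, a loosely bound subunit that affects mRNA entry and recycling, is given by library because its scaled call held with each library left out. It was at 11.5, 11.1 and 12.3 FPKM at D85, 10.9, 9.39 and 7.76 at D105 and 10.8, 11.3 and 11 at D135. D105 held the 2 lowest libraries, and D135 overlapped both other days. The change from D105 to D135 was 0.65 after scaling (adjusted p = 0.0119, kept with each library left out) and 0.23 as deposited (adjusted p = 0.16). It was called after quantile normalization too (0.53, adjusted p = 0.0275). After scaling to the total without the 50 most abundant loci it was not called (0.32, adjusted p = 0.076). Against the core subunit EIF3B within each library, EIF3J had ratios of 1.05, 0.976 and 0.964, then 0.987, 0.886 and 0.748, then 1.13, 1.06 and 1.06. D135 was highest and the earlier days overlapped. That ratio, on which library scaling has almost no bearing, had an exact permutation p of 0.025 and was not called after adjustment over 11 pairs (0.138).

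EIF3H, also chosen after its values were seen, was at 21.7, 22 and 18.4 FPKM at D85, 18.3, 20.7 and 19.9 at D105 and 19.0, 26.1 and 23.2 at D135. D135 replicate 1 lay within the range of the earlier days and the other two lay above it. After median-of-ratios scaling it was called higher from D85 (0.58, adjusted p = 0.0167) and from D105 (0.64, adjusted p = 0.0173). These calls were lost without D85 replicate 3 and without D105 replicate 1 respectively. The changes were 0.13 and 0.20 as deposited, and 0.36 and 0.40 after quantile normalization, none called. Scaling to the total without the 50 most abundant loci gave 0.25 and 0.29, also not called. EIF3A, the scaffold subunit, and EIF3L ranged from 17.8 to 26.4 and from 48.3 to 67.0 FPKM. Their changes from D85 to D135 were -0.37 (adjusted p = 0.026) and -0.33 (adjusted p = 0.0199) as deposited, and 0.09 and 0.14 after scaling. A locus described as EIF3C carries no EIF name and is no member. It lay between 55.4 and 70.0 FPKM in all libraries as deposited, with changes to D135 of -0.02 from D105 and -0.08 from D85, not called. After median-of-ratios scaling it was called higher from D105 (0.43, adjusted p = 0.0373) and from D85 (0.38, adjusted p = 0.0409).

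Within eIF4F, EIF4A1 had the largest change of the tested members from D85 to D135 as deposited. After scaling the changes of EIF1 (1.32, not called) and EIF4EBP1 (1.26) were larger. EIF4A1, the main RNA helicase of the complex, was at 108, 96.6 and 97.5 FPKM at D85, at 86.8, 79.5 and 64.0 at D105 and at 38.4, 40.2 and 48.6 at D135. As deposited the days did not overlap, and each later day was lower. After scaling D135 (45.7 to 60.6) overlapped D105 (58.5 to 78.7), and both lay below D85 (83.1 to 95.1). The deposited means were 101 ± 6.36, 76.8 ± 11.6 and 42.4 ± 5.48 FPKM (SD, n = 3). From D85 to D135 EIF4A1 fell by 1.24 ± 0.14 (SE) on the log2 scale as deposited (limma, adjusted p = 0.000484), or to 0.425 times the D85 level. After scaling it fell by 0.77 ± 0.14 (adjusted p = 0.00614), and this call held under every alternative tried and with each library left out under both scalings. From D105 to D135 the change was -0.84 (adjusted p = 0.004) as deposited and -0.39 (adjusted p = 0.11) after scaling. From D85 to D105 it was -0.40 (adjusted p = 0.31) and -0.38 (adjusted p = 0.365), not called.

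EIF4A2, a paralogous helicase, changed less. It was at 77.0, 58.1 and 68.6 FPKM at D85, 65.7, 68.7 and 66.0 at D105 and 56.5, 53.2 and 55.5 at D135. All D135 libraries lay below the others as deposited, with a change from D85 of -0.29 (adjusted p = 0.0603), and after scaling the change was 0.18 (adjusted p = 0.304). Leaving out D85 replicate 2 gave calls as deposited from D85 (-0.39, adjusted p = 0.0164) and from D105 (-0.27, adjusted p = 0.0376). Within libraries, EIF4A2 stood at 0.712, 0.601 and 0.703 times EIF4A1 at D85, at 0.757, 0.865 and 1.03 times at D105 and at 1.47, 1.32 and 1.14 times at D135. The ratio thus passed from below to above 1 without overlap between days.

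The log2 ratio of EIF4A2 to EIF4A1 had means of -0.57 ± 0.13, -0.19 ± 0.22 and 0.38 ± 0.18 (SD, n = 3), a difference of 0.95 between D85 and D135. An exact permutation test of the F statistic over the 9 libraries gave p = 0.00357, the smallest that 1680 arrangements allow, and 0.0393 after Benjamini-Hochberg adjustment over 11 pairs. It was the single pair called, the others having adjusted p from 0.138 to 0.668. With 1 library left out the difference stayed between 0.86 and 1.04, and the adjusted p exceeded the threshold in 5 of 9 cases, up to 0.118 (without any D85 library or D135 replicate 1 or 2).

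**Figure D4:**
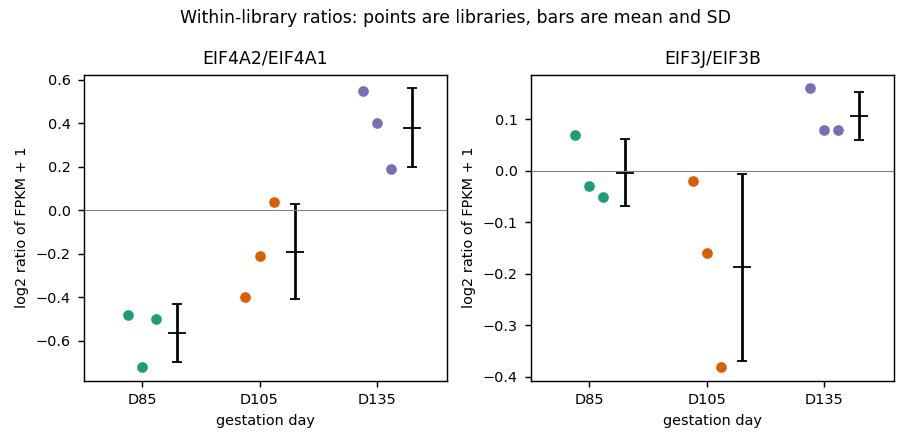
Within-library log2 ratio (FPKM + 1) of EIF4A2 to EIF4A1 (left) and of EIF3J to EIF3B (right) in each library by gestation day, with mean and SD of 3 libraries. On the left the days do not overlap, with means of -0.57, -0.19 and 0.38. On the right D135 is highest and D105 overlaps D85.

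The cap-binding gene EIF4E, given by library for its role and chosen after its values were seen, was at 7.72, 6.45 and 7.43 FPKM at D85, 7.34, 4.88 and 5.58 at D105 and 4.16, 4.31 and 7.41 at D135. D135 replicate 3 stood with the D85 libraries, and the gene was not called under either scaling. Leaving that library out gave a call from D85 to D135 as deposited (-0.64, adjusted p = 0.0202). EIF4E3, a relative that binds the cap, lay between 1.96 and 3.21 FPKM and was not called. The locus that a RefSeq table names EIF4E2, an inhibitory relative, has no EIF name in the deposited table and was not a member. It lay at 3.67 to 5.12 FPKM at D85 and at 1.94 to 2.39 at D135, with changes of -0.71 (adjusted p = 0.00305) as deposited and -0.35 (adjusted p = 0.0641) after scaling.

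The EIF4G scaffold genes had small changes. EIF4G2 (DAP5), a scaffold that lacks the eIF4E site, was at 79.5, 73.2 and 71.6 FPKM at D85, 73.2, 77.2 and 81.7 at D105 and 55.8, 60.6 and 66.0 at D135. All D135 libraries were lowest. As deposited it fell from D105 (-0.34, adjusted p = 0.0233) and from D85 (-0.30, adjusted p = 0.0344), with 0.11 and 0.17 after scaling. EIF4G1, the main scaffold, lay at 39.1 to 44.4 FPKM at D85 and 32.4 to 34.6 at D135, and EIF4G3 at 6.59 to 6.96 and 4.93 to 5.62. Both had a change of -0.30 from D85 to D135 as deposited (adjusted p = 0.0299 and 0.0209) and 0.16 and 0.11 after scaling. The ratio of EIF4G3 to EIF4G1 stayed within 0.152 to 0.184 in all 9 libraries, and EIF4G2 was 1.65 to 2.46 times EIF4G1.

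EIF4B and EIF4H stimulate the eIF4A helicase. EIF4B was at 113, 107 and 89.4 FPKM at D85, 98.3, 98.8 and 119 at D105 and 111, 121 and 95.4 at D135. The days overlapped throughout as deposited, with a change of 0.08 from D85 to D135. After median-of-ratios scaling it was called higher (0.55, adjusted p = 0.0192), a call lost in 3 of 9 fits with a library left out. The change was 0.09 after quantile normalization and 0.21 after scaling to the total without the 50 most abundant loci, neither called. A further locus named EIF4B, without a reference transcript, was listed at 0 in all 6 libraries of D85 and D105 and at 9, 8.52 and 4.72 FPKM at D135. This locus, not kept as a member, was called higher from D85 to D135 under both scalings. The change was 3.03 (adjusted p = 0.000121) as deposited and 3.31 (adjusted p = 9.91e-05) after median-of-ratios scaling. Its size depends on the 1 added to FPKM before the log. EIF4H, shown for its jumps, was at 73.5, 77.6 and 74.0, then 24.9, 67.9 and 78.9, then 72.8, 69.4 and 17.8 FPKM. D105 replicate 1 and D135 replicate 3 lay at 0.34 and 0.243 times the median of the other libraries, and no comparison was called.

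**Figure D5:**
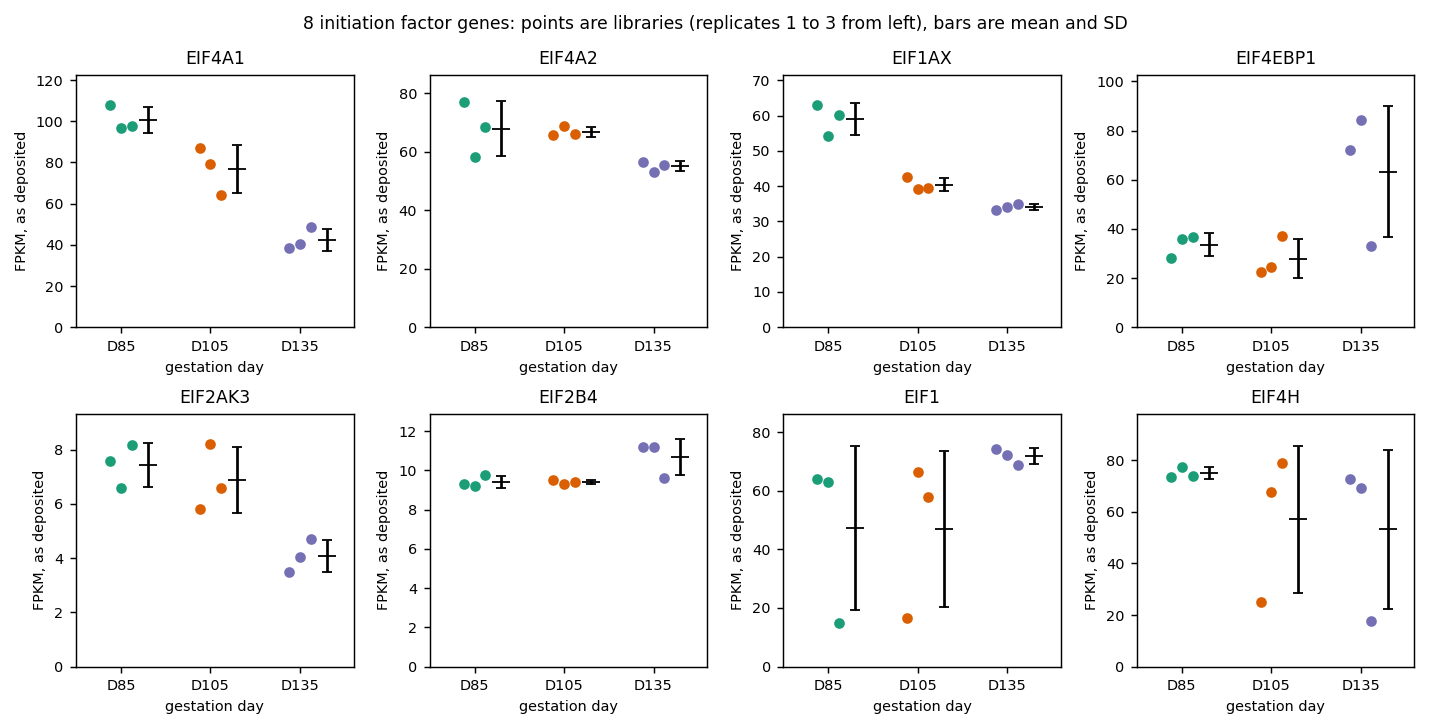
Deposited FPKM of 8 EIF genes by gestation day, a point for each library, with mean and SD of 3 libraries beside them. As deposited EIF4A1 and EIF1AX step down without overlap (after median-of-ratios scaling EIF1AX lies higher at D135 than at D105), EIF4A2 differs less between days, EIF4EBP1 is high in 2 of 3 D135 libraries, and EIF1 and EIF4H have single libraries far below the rest of their day.

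EIF4A3, a helicase of the same family that sits in the exon junction complex, was at 37.7, 34.4 and 31.0 FPKM at D85, 30.7, 29.0 and 29.9 at D105 and 24.3, 23.1 and 22.9 at D135. The days did not overlap. As deposited it fell from D85 to D135 by 0.53 ± 0.09 (SE) on the log2 scale (limma, adjusted p = 0.00249, kept with each library left out), and after scaling the change was -0.07 (adjusted p = 0.569). Of the helicase genes EIF4A1, EIF4A2 and EIF4A3, EIF4A1 was thus the one called under both scalings; the difference from EIF4A3 was not tested.

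The repressors of eIF4E held the 1 gene called higher as deposited. EIF4EBP1, whose unphosphorylated protein keeps eIF4E from eIF4G, was at 28.3, 36.0 and 36.6 FPKM at D85, 22.5, 24.4 and 37.0 at D105 and 72.3, 84.3 and 33.2 at D135. D135 replicates 1 and 2 lay far above all others, and D135 replicate 3 lay within the earlier range. From D105 to D135 the change was 1.08 ± 0.34 (SE; limma, adjusted p = 0.0382) as deposited and 1.53 (adjusted p = 0.022) after scaling. The call as deposited was lost in 7 of 9 fits with a library left out, all but those without D105 replicate 3 and D135 replicate 3. The scaled call was lost in 4 of 9. From D85 the change was 0.80 (adjusted p = 0.0899) and 1.26 (adjusted p = 0.0309), the latter lost in 5 of 9. Set against EIF4E, EIF4EBP1 was at 3.07 to 6.62 times its level in the D85 and D105 libraries and 17.4, 19.5 and 4.48 times in those of D135; this ratio was not called (adjusted p = 0.321).

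EIF4ENIF1 (4E-T), which carries eIF4E into the nucleus and to silenced mRNAs, was at 9.87, 10.5 and 7.97 FPKM at D85, 10.4, 8.57 and 9.82 at D105 and 5.82, 6.43 and 6.15 at D135. Every D135 library lay below every earlier one. As deposited it fell by 0.57 (log2) from D105 (adjusted p = 0.0084) and by 0.54 from D85 (adjusted p = 0.00731), kept with each library left out, and after scaling the changes were -0.16 and -0.13. EIF4EBP2, a related eIF4E-binding protein shown for its spread, lay between 7.95 FPKM in D105 replicate 1 and 32.8 in D135 replicate 2. EIF4EBP3 lay between 3.61 and 5.94 FPKM, and neither was called.

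EIF5A, the hypusine-bearing factor that also acts in elongation, was likewise chosen after its values were seen. It was at 16.3, 30.0 and 27.7 FPKM at D85, 16.3, 16.5 and 15.6 at D105 and 11.1, 13.9 and 21.7 at D135. The days overlapped, and the change from D85 to D135 was not called (-0.64 as deposited, adjusted p = 0.0906, and -0.19 after scaling). Leaving out D85 replicate 1 or D135 replicate 3 gave a call as deposited (-0.90, adjusted p = 0.0249, and -0.89, adjusted p = 0.029). Its paralogue EIF5A2 lay between 0.957 and 2.16 FPKM, 0.0373 to 0.194 times EIF5A in the same libraries. EIF6, which keeps the large subunit from joining too early, lay at 21.8 to 24.5 FPKM at D85 and 16.1 to 19.5 at D135. It was called lower as deposited (-0.34, adjusted p = 0.0376), a call lost in 6 of 9 fits with a library left out, and had a change of 0.11 after scaling.

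Of the calls as deposited, 3 of 11 from D105 to D135 (EIF2AK3, EIF4A1 and EIF4ENIF1) and 8 of 19 from D85 to D135 (EIF1AX, EIF2AK1, EIF2AK3, EIF2AK4, EIF2B5, EIF4A1, EIF4A3 and EIF4ENIF1) held with each of the 9 libraries left out. Leaving out D135 replicate 2 left 3 genes lower from D105 and 10 from D85, and leaving out D85 replicate 2 also left 10 lower from D85.

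Genes around the initiation factors were read from lists in the same fits. From D85 to D135 their counts stand beside 6.9% of all tested loci called higher and 39.7% lower as deposited, and 14.9% and 12.5% after scaling. TOR signalling controls the eIF4E-binding proteins. Of 17 tested genes in or near this pathway, 1 rose and 8 fell from D85 to D135 as deposited. After scaling, 3 rose and 1 fell. Median changes were -0.29 and 0.14, close to those of the EIF genes. SESN3, a sestrin that restrains TOR complex 1, fell under both scalings, from 50.3, 51.8 and 55.6 FPKM at D85 and 48.6, 38.0 and 58.6 at D105 to 17.6, 16.6 and 19.1 at D135 (-1.51, adjusted p = 0.0003; -1.06, adjusted p = 0.00266 after scaling). SESN1, a related sestrin named after its values were seen, rose under both, with 5.72 to 6.66 FPKM at D85 and 10.6 to 12.9 at D135 (0.76, adjusted p = 0.00121; 1.18, adjusted p = 0.000195). In neither gene did D135 overlap an earlier day.

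Of 8 tested genes of the integrated stress response, which eIF2 alpha phosphorylation sets off, 1 fell from D85 to D135 under both scalings and 0 rose. That gene was ASNS, asparagine synthetase, a target of ATF4. It was at 7.88, 3.99 and 5.72 FPKM at D85, 3.73, 3.19 and 2.07 at D105 and 1.56, 1.69 and 1.5 at D135, without overlap between days (-1.37, adjusted p = 0.00231; -1.04, adjusted p = 0.0122 after scaling).

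Among 14 partners of initiation, such as the poly(A)-binding proteins, 0 rose and 5 fell from D85 to D135 as deposited, and 4 rose and 0 fell after scaling. Of 12 elongation and termination factors 1 rose and 1 fell as deposited, and 4 rose and 0 fell after scaling. EEF1A2, the elongation factor isoform of mature muscle, was called higher in all comparisons under both scalings, at 3.09 to 8.69 FPKM at D85, 76.0 to 167 at D105 and 577 to 660 at D135. Of 13 genes for RNA polymerase I and ribosome biogenesis, 0 rose and 11 fell from D85 to D135 as deposited, and 0 rose and 4 fell after scaling (NCL, NOP58, DKC1 and NPM1). Their median change was -0.63 as deposited and -0.22 after scaling, below that of the EIF genes (-0.29 and 0.17), and that difference was not tested. NCL (nucleolin) was at 43.3, 47.8 and 35.0 FPKM at D85, 36.0, 40.1 and 31.3 at D105 and 20.9, 17.2 and 20.6 at D135, with all D135 libraries lowest (-1.06, adjusted p = 0.00109; -0.60, adjusted p = 0.00828 after scaling).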

How the data were processed

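The authors deposited FPKM levels for each of the 9 libraries in a common table, per the file headers. Cutadapt, Bowtie2 and TopHat2 are named without order or version, per the submitters' processing notes; build, assembler and counting: not given in the sources used here. The table holds no counts, so depth is unknown. The design text names 2 sequencer models and does not assign libraries to them, so this was not tested. Tested loci (13086 of 22605) reached 1 FPKM in 3 or more libraries. They were tested as log2(FPKM + 1), so folds of low genes are understated, with limma 3.58.1 in R 4.3.3 (all 9 libraries in a single fit, eBayes with a trend, two-sided, Benjamini-Hochberg, threshold 0.05). Partner ratios, 11 of 12 pairs listed, were tested by two-sided exact permutation. Scripts were tested on simulated data. Alternatives were other scalings, pseudocounts, filters, variance models, a replicate block and leaving out each library; median-of-ratios scaling with each library left out was added after seeing the data. Values by library are given for genes called with the largest changes, the most abundant, those whose call depends on scaling and members of a called ratio; others are marked as chosen for their values. Members, gene lists and pairs were chosen with earlier results of these data known. Names not in the table came from a RefSeq table (ARS-UI_Ramb_v3.0).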

Additional observations from a re-analysis of the deposited data

How the results depend on the processing

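Most calls depended on the library scaling. The numbers of EIF genes called from D105 to D135 (1 higher, 10 lower as deposited) were 9 and 0 after median-of-ratios scaling and 2 and 1 after quantile normalization, and 4 were lower after scaling to the total without the 50 most abundant loci. From D85 to D135 (0 higher, 19 lower) they were 9 and 1, 2 and 3, and 1 and 8 under these scalings, and by the F test (15) 9, 4 and 6. Without a filter on low values 1 gene, EIF1AX, was lower at D105 than at D85, and 0 were higher from D105 to D135, as also when only the libraries of the days compared were fitted.

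Deviations of libraries with the same replicate number were close to uncorrelated (-0.0659 to 0.0605 over 9 pairs). At 3 libraries a day, this cannot exclude a pairing or a shared batch. With the number as a replicate block the counts were 0 higher and 6 lower from D105 to D135, 12 lower from D85 to D135 and 8 by the F test; the block with median-of-ratios scaling gave 3 and 0, 3 and 1, and 2. Permuting the partner ratios within replicate numbers called 0 pairs, where the smallest p is 0.0278. After adjustment over 11 pairs a single pair at that p stays above the threshold. This permutation therefore cannot decide on the ratio of EIF4A2 to EIF4A1.

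With each library left out, the counts as deposited ran from 0 to 1 higher and 3 to 12 lower from D105 to D135, 0 to 1 and 10 to 18 from D85 to D135, and 5 to 12 by the F test; 0 were called from D85 to D105, and 0 to 2 ratios. After median-of-ratios scaling they were 3 to 8 and 0 to 0, 2 to 8 and 1 to 2, and 2 to 7.

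Among the changes called as deposited, those that turned sign after median-of-ratios scaling, with or without the block, were EIF2AK1 (0.00), EIF2B2 (0.01), EIF4A3 (0.11) and EIF4G2 (0.11) from D105 to D135, and EIF2B5 (0.03), EIF2D (0.11), EIF3A (0.09), EIF3L (0.14), EIF4G1 (0.16), EIF4G2 (0.17), EIF4G3 (0.11) and EIF6 (0.11) from D85 to D135. After quantile normalization EIF2D and EIF4G3 were at 0.05. The cause was not tested. With 3 libraries a day and no counts, the precision of single levels is unknown.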
